A study of Rattus norvegicus with 16 samples.

Results

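The comparison of F3 rats of the EDC lineage with F3 rats of the vehicle lineage covers 8 of the 16 RNA sequencing libraries of the series, 4 in each group. The libraries were chosen by their labels alone, generation F3 and treatment EDC mixture or Control (Vehicle). The rule used no measured value, though it was set with earlier results of these data known. All 8 come from the hypothalamus (labelled MBH-PoA) of female Wistar rats at 21 days of age. F3 control rats descend from a vehicle lineage. F3 EDC rats descend from a lineage in which a mixture of endocrine disrupting chemicals (EDC) was given in food, from before gestation to the end of lactation, and the labels call their exposure ancestral and maternal. The labels do not name the chemicals or doses, nor say which females received them, how many litters the 4 rats of a group came from, or who dissected the tissue. The titles of the EDC samples read Control, against their treatment and source fields, and these 2 fields, which give the same groups, were followed.

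Endocrine disrupting chemicals are compounds that interfere with the synthesis, transport or action of hormones. The mediobasal hypothalamus holds neurons that set feeding, growth and the pulsatile release of gonadotropin-releasing hormone. The preoptic area regulates maternal behaviour and the preovulatory hormone surge, and both regions take part in the onset of puberty. When a pregnant female is exposed, her fetus and the germ cells within that fetus are exposed with her. The F3 generation descends from those germ cells at one remove, so in the maternal line it is the earliest generation with no direct contact with the compounds. The F3 comparison therefore asks whether expression differs in rats whose only contact with the mixture was through their ancestors.

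Genes are given by their Ensembl rat identifiers, since 0 of the 32883 IDs in the files could be paired with a symbol in the gene table at hand. The tissue and its cell types were for that reason not checked against marker genes, and differences in cell makeup and in RNA per cell cannot be told apart. Counts assigned to genes ran from 10987632 to 28768727 in F3 control and from 10285902 to 30850837 in F3 EDC. Replicate 4 was the shallowest library of both groups. Reads that mapped to several places took 16.5% to 43.3% of a control library and 15.7% to 44.4% of an EDC library, with 1 library over 40% in each group (control replicate 1 and EDC replicate 4). Multimapping reads averaged 30.8% ± 11.1 in control and 24.7% ± 13.6 in EDC (SD, n = 4; p = 0.514 by a two-sided exact permutation test). The smallest p that 4 against 4 can give is 0.0286, which becomes 0.314 when adjusted over the 11 library measures tested, so a single measure could not pass the threshold in this design.

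The 2 groups separated on the main axis of variation among the F3 libraries. The first principal component of log2 CPM (read counts scaled to 1000000 per library) held 25.4% of the variance over 15016 genes. F3 control replicates 1 to 4 scored -20.3, -41.2, -13.1 and -3.27 on it. F3 EDC replicates 1 to 4 scored 13.7, 11.97, 30.5 and 21.7. Every EDC library lay above every control library (difference in means 38.9, p = 0.0286 by a two-sided exact permutation test, or 0.314 once adjusted for 11 tests, n = 4), the smallest values this design can give for a single measure. Control replicate 4 lay closest to the EDC libraries. The second component (21.3% of the variance) set EDC replicate 4, at 49.4, apart from the other 7 libraries, which lay between -22.4 and 8.47.

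**Figure D1:**
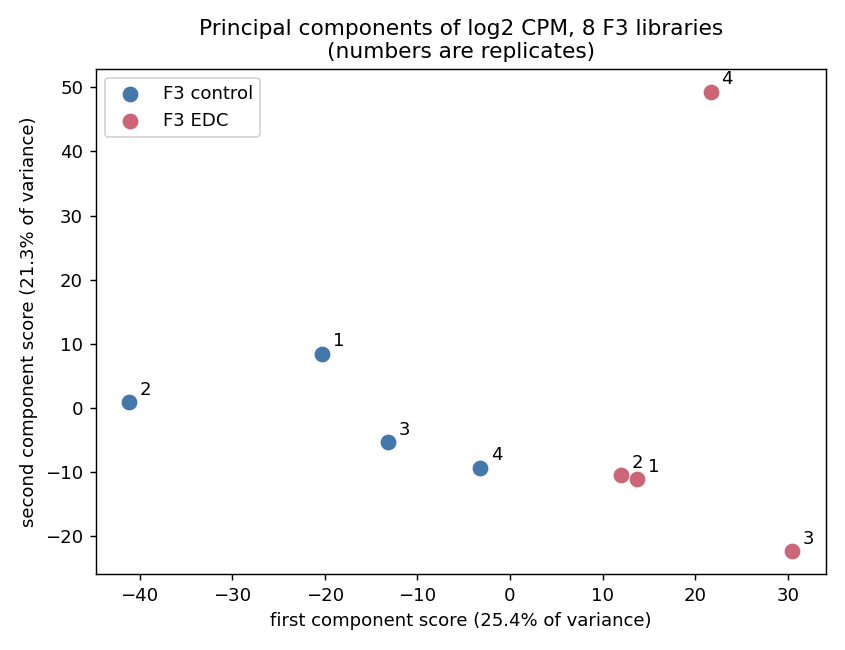
Scores of the 8 F3 libraries on the first (x axis) and second (y axis) principal components of log2 CPM, with points coloured by group and numbered by replicate. The 4 EDC libraries lie at 11.97 or more on the first component and the 4 control libraries at -3.27 or less, while EDC replicate 4 stands alone at 49.4 on the second.

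Libraries were also compared in pairs. The typical gene differed by a median of 0.13 to 0.19 on the log2 scale between 2 EDC libraries (6 pairs) and by 0.17 to 0.23 between 2 control libraries (6 pairs). Between an EDC and a control library it differed by 0.19 to 0.26 (16 pairs). The range across groups overlapped that among controls and lay above that among EDC libraries. The overlap came from control pairs that included replicate 4, at 0.217 to 0.226. Pairs among control replicates 1, 2 and 3 differed by 0.165 to 0.168, below every pair across groups. Gene by gene the EDC libraries varied less. Their biological coefficient of variation, the spread between animals beyond counting error, was 14.9%, against 16.8% among controls. The standard deviation of log2 CPM was larger in EDC than in control for 6022 of the 15016 genes (40.1%), and its median over genes was 0.15 in EDC and 0.18 in control. Some library measures went the other way: genes detected numbered 18413 ± 899 in EDC and 18014 ± 380 in control, and the lowest correlation within a group was 0.967 in EDC and 0.972 in control.

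Fitted on the 8 libraries alone, 625 of 15016 genes (4.16%) were past the threshold, a Benjamini-Hochberg adjusted p of 0.05 by the quasi-likelihood test of edgeR. Of these, 250 genes (1.66% of those tested) were higher in F3 EDC and 375 (2.5%) were lower. At an unadjusted p under 0.05 there were 3078 genes (20.5%). The called genes held 6.03% of the counts in F3 control and 5.69% in F3 EDC. A fit that also included the 8 F1 libraries called 452 genes, of which 399 were among the 625.

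The changes were small. The median log2 fold change was 0.42 among the 250 higher genes and -0.40 among the 375 lower genes, whereas the median size over all tested genes was 0.15. The middle 80% of the called genes changed by 0.29 to 0.67 on the log2 scale. Changes over 1.5-fold were found in 35 of the higher and 60 of the lower genes, and changes over 2-fold in 6 and 16. The largest fitted log2 fold changes among called genes were 2.32 and -3.25.

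Called genes were mostly well expressed genes. When the tested genes were ordered by mean CPM and split into 4 bins of 3754, the lowest bin (0.305 to 5.07 CPM) held 19 called genes (0.506% of the bin). The next bin held 74 (1.97%) and the one after it 211 (5.62%). The highest bin, from 52.6 CPM upward, held 321 (8.55%). The size of the called changes ran the other way, with a median of 1.57 on the log2 scale in the lowest bin and 0.35 in the highest. Over all tested genes the median size was 0.30 in the lowest bin and 0.11 in the highest. In the highest bin 206 called genes were lower in EDC and 115 higher, while in the lowest bin 10 were lower and 9 higher.

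**Figure D2:**
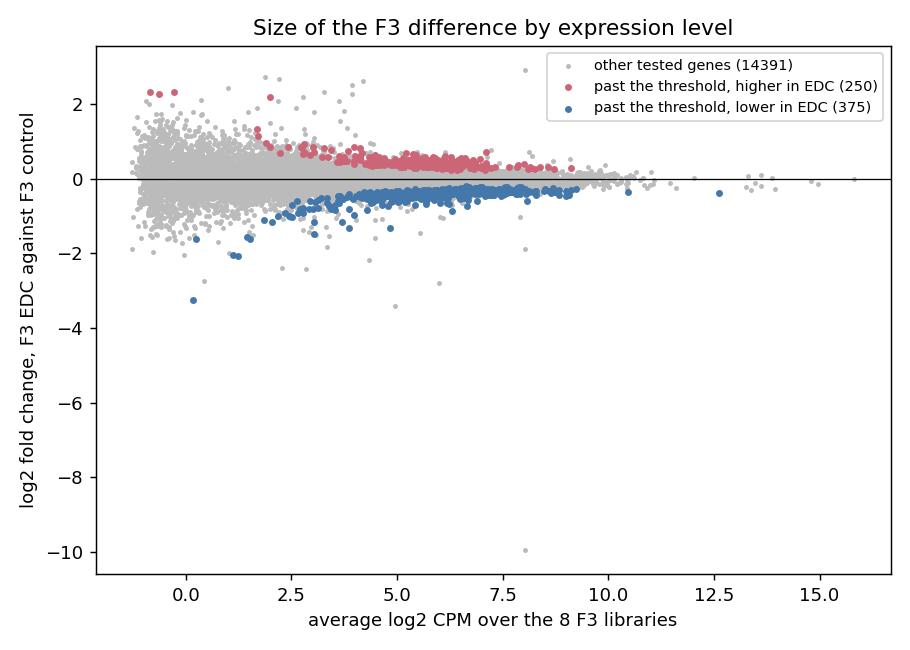
Log2 fold change of F3 EDC against F3 control (y axis) against average log2 CPM (x axis) for the 15016 tested genes, 1 point per gene. Coloured points are the 250 genes higher and the 375 lower in EDC at an adjusted p below 0.05; they lie close to 0 at high expression and farther from it at low expression, and 1 gene not called lies at -9.96.

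Over all tested genes, called or not, 160 had a fitted change over 2-fold upward in EDC and 131 over 2-fold downward. At this size, with low-count genes included, the balance of directions was thus opposite to that among called genes. Among genes with a mean of at least 5 CPM, 16 were over 2-fold higher in EDC without being called, and EDC replicate 3 held the highest value in 14 of them. Another 26, more than the 16 higher, were over 2-fold lower without being called, with the highest value in control replicate 1 in 12 and in control replicate 2 in 9. The largest was ENSRNOG00000061254, singled out after its values were seen, at 2041, 0.852, 0.325 and 29.8 CPM in F3 control replicates 1 to 4. In F3 EDC replicates 1 to 4 it was at 0.0615, 0.783, 0 and 2.54 CPM. The size of its fitted log2 change of -9.96 (SE 3.59, adjusted p = 0.194 by edgeR) rests mostly on control replicate 1. Control replicate 4 also lay above every EDC library, while control replicates 2 and 3 lay within the EDC range.

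EDC replicate 3 carried a block of genes of its own. It lay over 4-fold above each of the other 7 F3 libraries in 18 tested genes, where control replicate 1 and EDC replicate 4 did so in 2 genes each and the other 5 libraries in 0. In these 18 genes it stood at 5.36 to 1811 CPM, a median of 18.8 times the mean of the other 7 libraries (5.08 to 48.7 times). Control replicate 1 held the next highest value in 14 of the 18. Of the 18, 0 were among the 625 called genes, where 4.16% of all tested genes were called, and a gene chosen for 1 high library has a wide spread in its group.

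Overlap between the groups was read from the values themselves. For 1859 tested genes (12.4%) the ranges of the EDC and control libraries did not overlap, 915 with EDC above and 944 with EDC below. This held for 602 of the 625 called genes, and in the other 23 at least 1 library crossed into the range of the other group. The genes were called with these same 8 libraries, so the 602 are a description and no separate measure of agreement. Few genes were switched on or off between lineages. Of 21816 genes with any read in these 8 libraries, 18 had reads in each EDC library and none in any control, and the highest count among them in any library was 17. The reverse was seen in 4 genes, with at most 5 reads. Such counts are near the limit of detection at this depth. On the strand opposite to the annotated gene, 24 of 2346 genes with enough reads (1.02%) differed past the threshold.

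The 2 IDs with the smallest p in each direction are given here in single animals. They were chosen by p from these same libraries, so their separation between groups is a description. They need not be typical of the called genes. ENSRNOG00000024186 was at 52.6, 54.3, 53.8 and 62.2 CPM in F3 control replicates 1 to 4. In F3 EDC replicates 1 to 4 it was at 88.9, 86.3, 87.8 and 76.7 CPM. The groups did not overlap, and the 2 values closest to each other, 62.2 and 76.7 CPM, both came from the shallow replicate 4. It rose from 55.7 ± 4.35 to 84.9 ± 5.61 CPM (SD, n = 4), 1.53-fold (log2 change 0.61 with SE 0.07, adjusted p = 0.00809 by edgeR).

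ENSRNOG00000018958 was at 89.7, 99.2, 86.0 and 91.2 CPM in F3 control replicates 1 to 4 and at 123, 127, 143 and 126 CPM in F3 EDC replicates 1 to 4. EDC replicate 3 was the highest library, and the lowest EDC value lay above the highest control value. The gene rose 1.42-fold, from 91.5 ± 5.55 to 130 ± 8.88 CPM (SD, n = 4) (log2 change 0.50 with SE 0.07, adjusted p = 0.00809 by edgeR).

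ENSRNOG00000051257 was at 153, 144, 126 and 145 CPM in F3 control replicates 1 to 4. In F3 EDC replicates 1 to 4 it was at 96.9, 93.5, 81.1 and 102 CPM. EDC replicate 3 was the lowest library and control replicate 1 the highest, with no overlap between groups. It fell from 142 ± 11.6 to 93.5 ± 9.04 CPM (SD, n = 4) (log2 change -0.60 with SE 0.08, adjusted p = 0.00809 by edgeR). It is the one of the 4 whose call depended on the fit: with the F1 libraries included, the log2 fold change was -0.63 with an edgeR adjusted p of 0.351. Its unstranded counts were below its stranded counts in every F3 library, for example 3680 against 4269 in control replicate 1, so part of its reads could not be assigned without strand.

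In F3 control replicates 1 to 4, ENSRNOG00000025589 stood at 93.6, 101, 85.2 and 93.9 CPM, and it stood at 64.9, 62.5, 47.8 and 55.3 CPM in F3 EDC replicates 1 to 4. EDC replicate 3 was again the library farthest from the controls. The gene fell from 93.3 ± 6.33 to 57.6 ± 7.72 CPM (SD, n = 4) (log2 change -0.69 with SE 0.09, adjusted p = 0.00809 by edgeR). The 4 IDs are well expressed: their mean CPM equalled or exceeded that of 81.4%, 89.3%, 90.1% and 82.7% of the tested genes, in the order given.

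**Figure D3:**
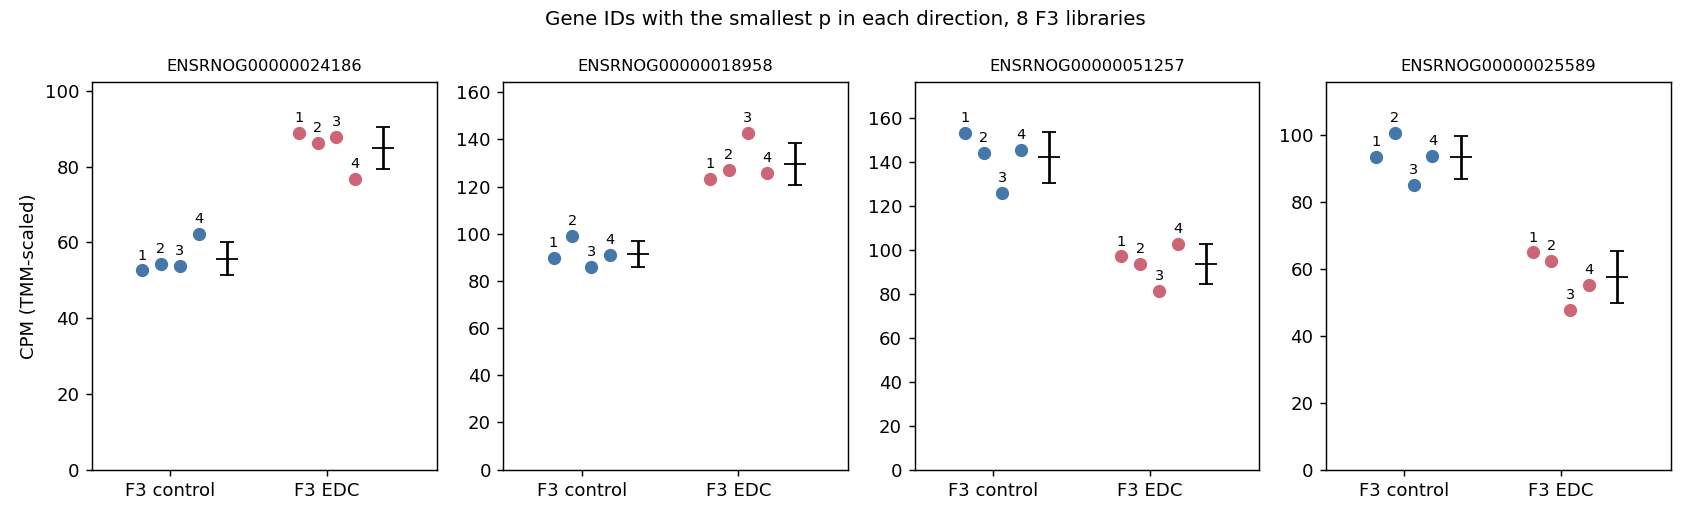
CPM of the 4 IDs in each F3 library (y axes from 0, points numbered by replicate), with the mean and SD of each group of 4 in black. In each panel the EDC points lie on one side of the control points; for ENSRNOG00000025589, EDC replicate 3 is lowest at 47.8 CPM and the lowest control is at 85.2 CPM.

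The number of called genes rested strongly on which animals were included. Without F3 EDC replicate 3 the same test called 82 genes, and without F3 control replicate 2 it called 122. Leaving out F3 control replicate 1 gave 287, EDC replicate 2 gave 317 and EDC replicate 1 gave 345. Leaving out EDC replicate 4 gave 452 and control replicate 3 gave 504. In contrast, leaving out F3 control replicate 4 raised the count to 1506. Of the 82 genes without EDC replicate 3, 81 were in the full list, as were 116 of the 122 without control replicate 2, but only 610 of the 1506 without control replicate 4. Without control replicate 2 the balance of directions also turned, to 66 higher and 56 lower.

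**Figure D4:**
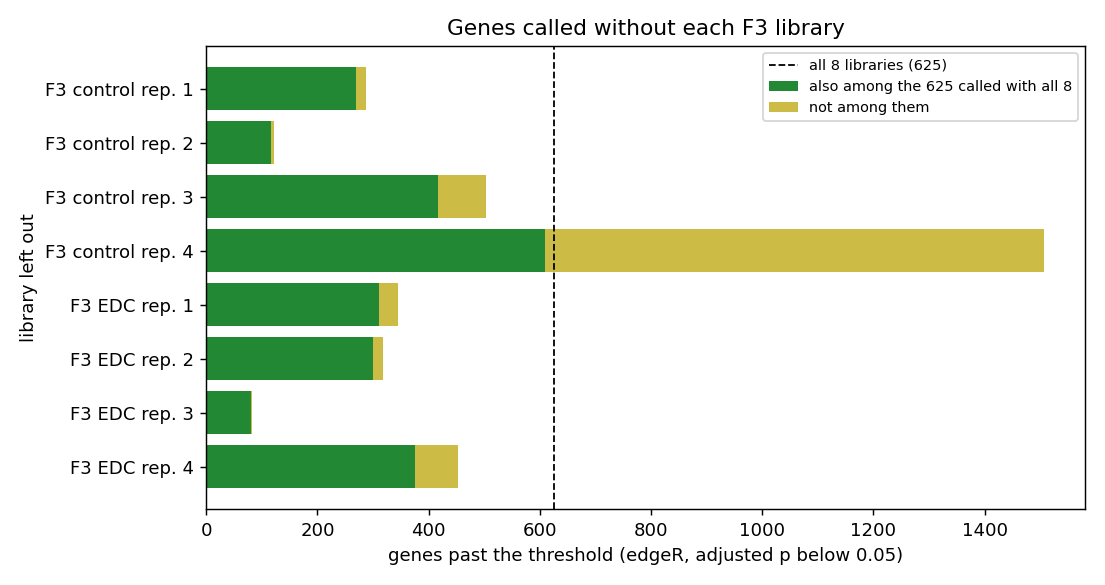
Genes past an adjusted p of 0.05 (x axis) when each F3 library in turn is left out (y axis), split into genes also called with all 8 libraries (green) and others (yellow), with the full count of 625 as a dashed line. The count ranges from 82 without EDC replicate 3 to 1506 without control replicate 4.

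The place of each library within the called genes shows the same unevenness. EDC replicate 3 was the EDC library farthest from the controls in 402 of the 625 genes and the nearest in 22. Control replicate 2 was the farthest control in 239 genes and the nearest to EDC in 67. Control replicate 4 was the control nearest to EDC in 230 genes. EDC replicates 1 and 2 were the EDC libraries nearest to the controls in 201 and 216 genes and the farthest in 50 and 46. The genes were chosen with these libraries, so the counts are a description.

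A left-out library had no part in choosing the genes called without it, and its position among them was therefore read separately. A library was counted as on its own side where its log2 CPM lay nearer the mean of its own group than that of the other group. EDC replicate 3 lay on the EDC side in 80 of the 82 genes called without it (97.6%), against 68.8% over all tested genes. Its median distance along the way from the control mean to the EDC mean was 1.28 times the difference seen in the other libraries. Control replicate 2 lay on the control side in 110 of 122 genes (90.2%, against 65.3% over all genes). For control replicate 1 and EDC replicates 1, 2 and 4 the shares were 85.4%, 82.0%, 84.8% and 74.1%, and for control replicate 3 the share was 74.2%.

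Control replicate 4 was the exception. Of the 1504 genes called without it that could be placed, it lay on the control side in 730 (48.5%), close to its 49.1% over all tested genes, and its median position was 0.48 of the way from the EDC mean to the control mean. For genes that separated the other 3 control rats from the 4 EDC rats, this rat was thus as near to the EDC group as to its own. Control replicate 4 also stood apart from both groups. On the third principal component (17.1% of the variance) it scored -43.8, and the other F3 libraries scored -6.84 to 22.6. It was the highest of the 8 libraries in 2565 genes and the lowest in 2593, more than any other library. It had 10987632 gene counts, and the similarly shallow EDC replicate 4, with 10285902, lay on its own side in 74.1% of the genes called without it. Its share of multimapping reads, 30.1%, lay within the range of the other controls. The part of these measures in its position was not tested.

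**Figure D5:**
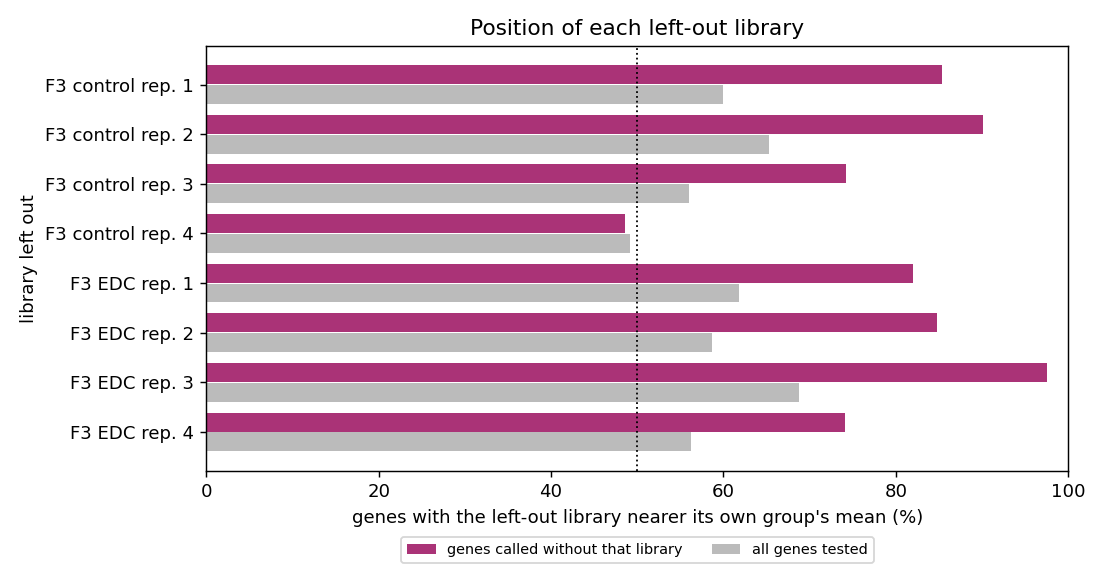
Share of genes (x axis, percent) for which a left-out F3 library (y axis) lay nearer its own group's mean, for genes called without that library (purple) and for all tested genes (grey), with 50% dotted. The share among called genes is 97.6% for EDC replicate 3 and 48.5% for control replicate 4.

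A core of 74 genes passed the threshold with all 8 libraries and in each of the 8 fits that left out 1. Of these, 34 were higher and 40 lower in EDC, with a median log2 change of 0.51 in size (0.36 to 3.25). The groups did not overlap in any of the 74, where 12.4% of all tested genes showed no overlap. Size and lack of overlap are a description here, since the same libraries chose the 74 genes. Their mean expression ran from 1.07 to 513 CPM, with a median of 71.4 CPM. The 4 IDs above belong to this core. With F3 control replicate 1 and EDC replicate 4 left out together, the 2 libraries with over 40% multimapping reads, 34 of the 74 were called among 65 genes in all. Counting every alternative fit tried on this comparison, 29 genes passed in each, 8 higher and 21 lower.

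The F1 rats of the series, whose exposure the labels call in utero, offer a comparison on other animals. The F1 groups also differed in their reads: unmapped reads took 5.29% to 9.45% in F1 control and 3.96% to 4.45% in F1 EDC, and multimapping reads 19.9% to 43.2% and 41.8% to 51.6%. The part of these differences in the F1 results was not tested. Fitted alone, the 8 F1 libraries gave 7259 of 14589 genes past the threshold (49.8%). Of the 625 genes called in F3, 621 were tested in F1 and 418 were called there, which is 66.9% of the F3 list and 5.76% of the F1 list. Direction was shared in 124 of them, 51 higher and 73 lower in both generations. It was opposite in 294, of which 125 were higher in F3 and lower in F1 and 169 lower in F3 and higher in F1. Over the 621 genes, called in F1 or not, 215 (34.6%) had the same sign in F1, against 45.3% of all 14391 genes tested in both. Of the 74 core genes, 26 had the same sign in F1, and 60 were called there, 18 of them in the same direction.

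The 4 IDs differed in how they behaved in F1. ENSRNOG00000024186 went the same way: it was at 112, 115, 109 and 118 CPM in F1 control and 159, 148, 143 and 156 CPM in F1 EDC replicates 1 to 4 (log2 change 0.42 with SE 0.07, adjusted p = 0.000158 by edgeR). The difference between its F3 and F1 effects, tested as an interaction over all 16 libraries, was 0.17 on the log2 scale (SE 0.10, adjusted p = 0.181 by edgeR). ENSRNOG00000018958 went the other way in F1, from 184, 196, 169 and 144 CPM in control to 65.3, 53.3, 75.1 and 76.3 CPM in EDC (log2 change -1.36 with SE 0.12, adjusted p = 1.83e-07 by edgeR). All 4 EDC rats thus lay below all 4 controls in F1 and above them in F3.

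ENSRNOG00000025589, lower in F3 EDC, was higher in F1 EDC: 49.4, 52.6, 47.5 and 46.1 CPM in F1 control against 71.5, 80.8, 85.8 and 77.6 CPM in F1 EDC (log2 change 0.68 with SE 0.09, adjusted p = 6.71e-06 by edgeR). ENSRNOG00000051257 varied widely among F1 EDC rats, at 89.7, 74.9, 22.8 and 38.2 CPM, against 86.8, 71.1, 99.3 and 59.8 CPM in F1 control. The 2 F1 groups overlapped for this gene (log2 change -0.50 with SE 0.45, adjusted p = 0.405 by edgeR). Over all genes, the interaction passed the threshold for 6699 of 15366 (43.6%), and 460 of the 625 genes called in F3 were among them. The 625 were called by their F3 difference in the same libraries, and that difference is part of the interaction. A share above 43.6% is therefore partly built in by the choice of genes, and the 460 are a description. The F1 and F3 files carry different lane numbers, so levels in F1 and F3 cannot be told apart from the run, while each contrast of EDC with control stays within one lane number.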

How the data were processed

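RNA of 16 rat hypothalamus samples was sequenced with single reads on an Illumina HiSeq instrument, per the labels' protocols. Trimmomatic 0.33, TopHat2 2.1 and build rn6 are named in the submitters' processing notes. The deposited files hold raw read counts per Ensembl gene, laid out as STAR writes them. Its version and the annotation release are not stated in the notes, labels or files. Column 4 (1 strand) was used; it held at least 52.5 times the counts of the opposite strand in each F3 library. Library sizes and tests exclude the 4 summary lines. Groups came from the source description, with which the treatment field matches.

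After filterByExpr (count minimum 10) and TMM scaling, the 8 F3 libraries were fitted alone with edgeR 4.0.16 under R 4.3.3 (quasi-likelihood F test, robust, two-sided, Benjamini-Hochberg adjusted p of 0.05). CPM of F3 libraries come from that fit and CPM of F1 libraries from the fit of F1 alone. The SE is the log2 fold change over the root of its F statistic. Principal components and positions of libraries used log2 CPM (prior count 2). Library measures had exact permutation tests, adjusted over 11. The procedure was checked on simulated data, with counts drawn independently for each gene and library. That check does not cover deviations that many genes of a library share. No 2 F3 libraries held identical counts, and pairs within a group differed by more than sampling noise (chi-square per degree of freedom 10.0 to 115). P-values measure the spread between these rats, and litters are not given.

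Alternatives were DESeq2 1.42.0, limma 3.58.1 (voom), upper quartile or RLE scaling, other filters, counts without strand, a block for replicate number, all 16 libraries, the multimapping share as a covariate, and leaving out libraries. The planned gene lists, markers and named genes needed symbols and were not used; the rule fell back to the 2 IDs with the smallest p in each direction. Libraries, lists and tests were chosen with earlier results of these data known. No sequences are given, because IDs could not be matched to the sequence tables.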

Additional observations from a re-analysis of the deposited data

Results flagged for a closer look

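F3 EDC replicate 4 stood far from the other 3 F3 EDC libraries in 3 measures. Its 50 most abundant genes took 34.6% of its gene counts, against 25.1% to 25.9% in the others. Its TMM factor was 0.920, against 1.04 to 1.06, and its score on the second principal component was 49.4, against -22.4 to -10.5. Its most abundant gene alone took 10.6% of its counts. It was over 2-fold above all the other 7 F3 libraries in 32 genes and over 2-fold below them in 144. Other libraries came near or past these counts, with 51 genes above in EDC replicate 3 and 125 below in control replicate 2. Of the 30 groups of 4 values examined, 3 were flagged, where chance flags about 1 in 20 groups, and the 3 measures come from 1 library and are not independent. Without this library 452 genes passed the threshold, 376 of them among the 625.

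The effect of EDC differed between generations for ENSRNOG00000018958, with a log2 fold change 1.84 higher in F3 than in F1 (SE 0.14; edgeR adjusted p = 1.21e-09), and for ENSRNOG00000025589, with a difference of -1.40 (SE 0.13; edgeR adjusted p = 1.12e-08). For both, 4 of 4 EDC libraries lay on one side of the controls in F3 and on the other side in F1. Both IDs were chosen by their p in F3, and the F3 difference is part of the interaction. These interaction p-values and the F3 separation are therefore a description. Over all genes, 6699 passed the interaction test.

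Reads on the strand opposite to the annotated gene were not part of the comparison. Fitted the same way, 24 of 2346 genes with enough such reads (1.02%) passed the threshold in F3, 15 higher and 9 lower in EDC, and 294 had an unadjusted p under 0.05. The smallest edgeR adjusted p was 0.00428, and the log2 fold changes ran from -2.21 to 0.92. In 17 of the 24, the opposite strand held more reads than the annotated one, as it did in 685 of the 2346. On the annotated strand 14 of the 24 were tested and 0 were called, where 4.16% of all tested genes were.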

How the results depend on the processing

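The count of 625 genes in F3 stayed within 1.5 times under 9 of 19 alternatives: RLE factors (613), upper quartile factors (616), no filter (761), a mean log2 CPM of at least 1 (715), unstranded counts (644), the replicate block (447), all 16 libraries (452), and leaving out F3 control replicate 3 or F3 EDC replicate 4. It moved further with DESeq2 (1274), limma voom (1171), the multimapping share as a covariate (304) and without the 2 libraries over 40% multimapping reads (65, with 3 libraries a group, so that the share and the number of libraries cannot be told apart). Leaving out 1 library gave 82 (without F3 EDC replicate 3) to 1506 (without F3 control replicate 4). The causes were not tested. Lower genes outnumbered higher ones in all of these fits except the one without F3 control replicate 2.

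Same-numbered F3 libraries showed little shared deviation, with correlations of -0.0913, 0.0713, 0.0548 and -0.0532. Differently numbered ones gave -0.0687 to 0.133. The labels do not say what the replicate numbers mark, and a shared litter or day was not tested. The replicate block called 447 genes in F3, 393 of them among the 625, and 6292 in the interaction. The interaction count of 6699 ran from 6088 to 6786 without single libraries and stayed within 1.5 times under the other alternatives too. The log2 fold changes of the 4 IDs kept their sign in 19 of 19 alternatives and their call in all but 1, that of ENSRNOG00000051257 with all 16 libraries. Among genes up to 5.07 CPM, where counts are lowest, 19 of 3754 were called, and the part of depth in this was not tested.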
